A study of Mus musculus with 8 samples.

Results

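Genes of the Wnt pathway were examined in STHdh striatal cells made to overexpress the transcription factor Bcl11b. Members were the array probes whose gene symbol names a Wnt ligand, a Frizzled receptor, Lrp5 or Lrp6, a Dkk or Sfrp protein, Wif1, Porcn, a Dishevelled (Dvl) protein, an Axin, Apc, Ctnnb1, Lef1 or a symbol starting with Tcf7. This rule gave 70 probes of 48 genes, out of 25697 probes of 18120 gene symbols on the array. STHdh cells are conditionally immortalized progenitor cells from the embryonic mouse striatum, here the wild-type STHdh Q7 line. One group of 4 RNA samples came from cells transfected with the mouse Bcl11b cDNA (beta isoform) in the plasmid pcDNA3.1, and the other 4, titled with the name of the plasmid and labelled wild-type, are called mock here. Cells were harvested 2 days after transfection, and each RNA sample was hybridized to 1 Illumina MouseRef-8 v2 array. The study describes its 4 samples per group as different sets of transfected cells of a single line, and the share of cells that took up the plasmid is not given in the sources used here.

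Wnt proteins are secreted lipid-modified ligands. Porcn attaches the lipid, Wls carries the ligand to the cell surface, and the ligand binds a Frizzled receptor together with Lrp5 or Lrp6. Dishevelled proteins relay the signal to a complex of Axin, Apc and kinases that otherwise marks β-catenin (Ctnnb1) for destruction. Stabilized β-catenin enters the nucleus and acts with TCF/LEF factors on target genes, of which Axin2 is among the most widely used reporters. Other Wnt responses run through Frizzled or Ror receptors without β-catenin. In the developing telencephalon the dorsal midline is a main source of Wnt ligands, whereas the striatum arises from ventral tissue. Bcl11b, also called Ctip2, is a zinc finger factor of striatal projection neurons and T cells.

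The single Bcl11b probe was below detection on all 8 arrays. The level of the transfected gene is therefore unchecked here, and the position of the probe relative to the transfected cDNA is not given in the sources used here. A probe is called detected where its deposited detection p-value against negative control beads was under 0.01 on at least 1 array. Between 10121 and 10784 probes were detected on a mock array and between 10342 and 10644 on a Bcl11b array. Before normalization the median signal was higher on the mock arrays (31.6 to 53.9) than on the Bcl11b arrays (20.1 to 30.2), and the part of this brightness difference in the results was not tested beyond the other scalings given below. Of 6 neural progenitor markers on the array 4 were detected (Nes, Vim, Sox2 and Dlx2), with a summed signal of 24120 to 28199 on mock and 20434 to 28472 on Bcl11b arrays. Vim carried most of this sum, with a mean log2 signal of 14.5 on mock arrays, against 10.5 for Nes, the next brightest. None of the 6 markers of striatal projection neurons on the array, Ppp1r1b, Drd1a and Drd2 among them, and none of the 3 general neuronal markers was detected. The study reports by PCR that STHdh cells express Ppp1r1b, Rgs9 and Bcl11b, so a marker below detection here is not shown to be absent. Of 6 fibroblast or mesenchymal markers 5 were detected (Col1a1, Col3a1, Pdgfrb, Twist1 and Prrx1), with sums of 3369 to 5507 on mock and 4036 to 5233 on Bcl11b arrays. The oligodendrocyte, microglia and endothelium markers were not detected, and of 3 astrocyte markers Slc1a3 was. In these bulk samples fewer cells of a type and less RNA per cell cannot be told apart.

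Of the 70 member probes 25 were detected, carrying 20 of the 48 genes. This is 35.7% of the member probes, against 45.7% of all probes on the array. On all 8 arrays 20 probes of 16 genes were detected. The ligands were the least detected group. Of 28 ligand probes for 19 Wnt genes only 4 were detected, for Wnt4, Wnt5a and Wnt7a. The 16 ligand genes below detection were Wnt1, Wnt2, Wnt2b, Wnt3, Wnt3a, Wnt5b, Wnt6, Wnt7b, Wnt8a, Wnt8b, Wnt9a, Wnt9b, Wnt10a, Wnt10b, Wnt11 and Wnt16. Of 8 Frizzled genes 5 were detected (Fzd1, Fzd2, Fzd3, Fzd6 and Fzd7), and Fzd4, Fzd8 and Fzd10 were not. Both co-receptors were detected. Among the secreted antagonists, which bind the ligands or the co-receptors, Sfrp1 and Wif1 were detected and Dkk1, Dkk2, Dkk3, Dkk4, Sfrp2, Sfrp4 and Sfrp5 were not. Inside the cell Porcn, Dvl1, Dvl2, Apc, Ctnnb1, Tcf7, Tcf7l2 and Lef1 were detected, and Dvl3 and Axin2 were not. A detection call is a statement on a probe on this array, and a gene called not detected may still be transcribed.

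**Figure D1:**
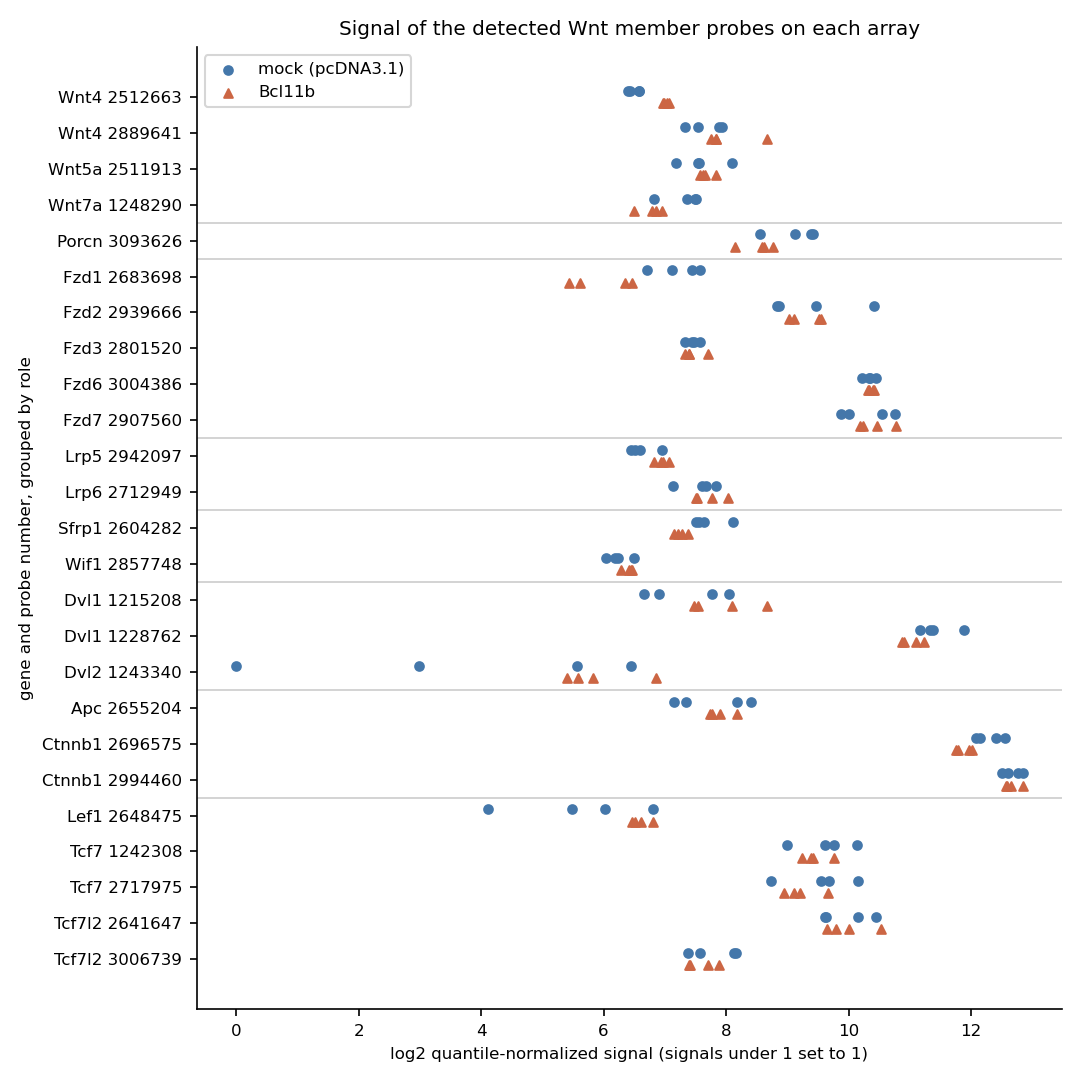
Log2 quantile-normalized signal (x axis) of the 25 detected member probes (y axis, gene symbol and probe number, ordered by role from ligands to TCF/LEF factors), with 1 circle per mock array and 1 triangle per Bcl11b array. The groups lie apart for Fzd1, Sfrp1 and the first-listed Wnt4 and Ctnnb1 probes, and signals of separate probes are not comparable with each other.

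After quantile normalization, a floor of 1 and log2 transformation, the groups were compared by limma on the full set of 25697 probes, and p-values were adjusted by Benjamini-Hochberg. Changes are given as log2 differences, Bcl11b minus mock, with their standard error (SE). At an adjusted p under 0.10, 1 member probe passed, for Wnt4, which is 1.43% of the 70 probes against 0.981% of all probes. At the looser threshold used by the study, an unadjusted p under 0.05 with a change of at least 0.32 on the log2 scale, 8 of the 70 probes passed (11.4%, against 9.02% of all probes). Both shares lie near their backgrounds. Of these 8, the probes for Wnt16 and Wnt7b were not detected on any array and get no fold change.

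Among the 25 detected probes 6 passed the looser threshold. The 5 that were lower in Bcl11b cells, Fzd1, Porcn, Wnt7a, Sfrp1 and a Ctnnb1 probe, make 20% of the detected members, against 10.5% of all detected probes. The 1 that was higher, Wnt4, makes 4%, against 4.32% of all detected probes. For 4 of the 25 (16%) the groups did not overlap, against 10.1% of all detected probes. The median log2 difference of the 25 was 0.03, beside -0.02 over all detected probes, and 11 had a negative and 14 a positive difference. The difference between these shares was not tested. The balance of directions moved with the scaling. After division of every array by its own median, 3 members were lower and 2 higher, and with no normalization between arrays 14 were lower and 0 higher. Over all probes the looser threshold passed 1494 lower and 823 higher, and 1118 lower and 1241 higher after division by the median. With no normalization between arrays it passed 6820 lower and 143 higher of all probes.

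**Figure D2:**
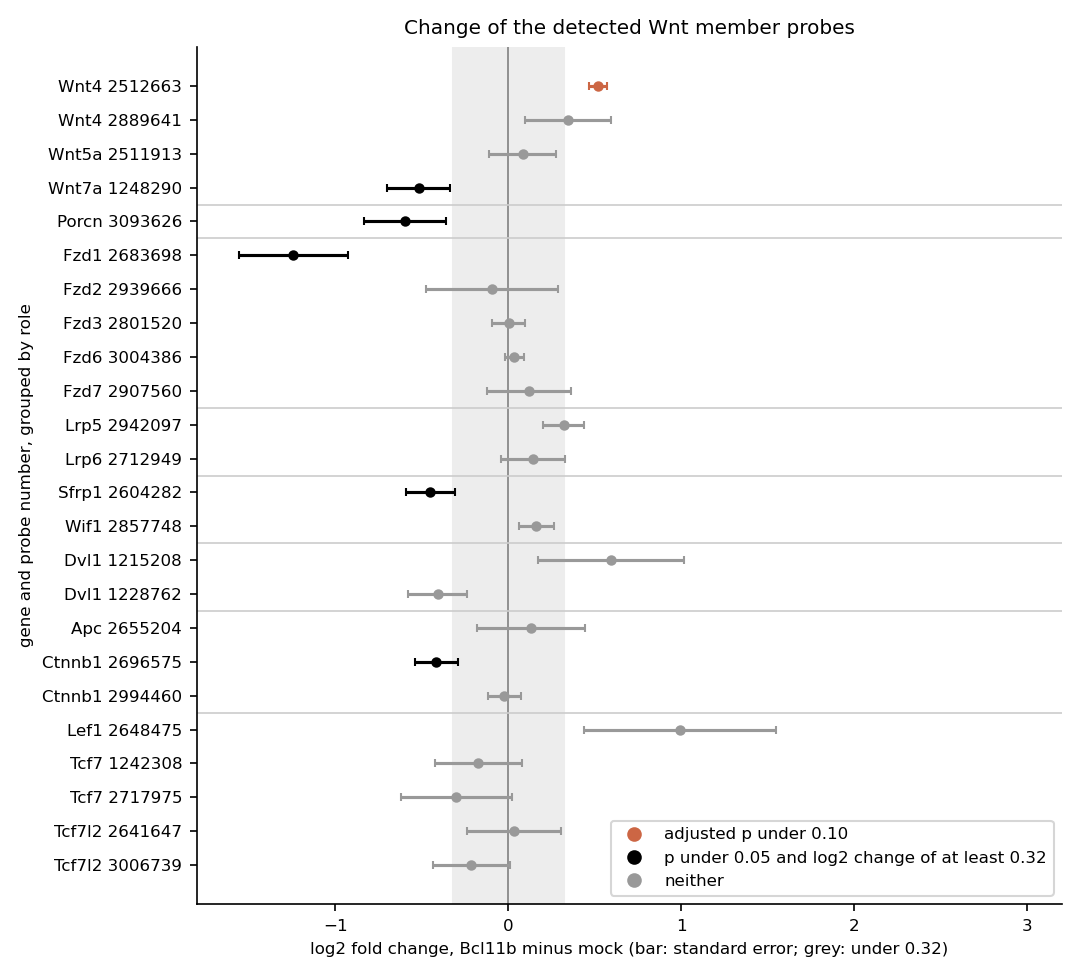
Log2 fold change, Bcl11b minus mock (x axis), of 24 detected member probes (y axis), with the standard error as bars and the range under the looser threshold's size (0.32) in grey. Dvl2 is left out because a mock array lay at the lowest allowed signal. The red point is a Wnt4 probe (adjusted p under 0.10), the black points are Wnt7a, Porcn, Fzd1, Sfrp1 and a Ctnnb1 probe, and the other probes passed neither threshold.

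Sequence is shown for the promoters of the gene that rose past the adjusted threshold and the gene with the largest drop among the called members, so that the motifs counted later can be seen in place. Both are the 250 bases before the annotated transcription start from RefSeq (GRCm38.p6), 5′ to 3′ on the gene's strand, and capitals mark the TCF/LEF core, CTTTGA or CTTTGT, on either strand. The Fzd1 window lies at chr5:4758217-4758466 on the minus strand and the Wnt4 window at chr4:137277385-137277634 on the plus strand.
Fzd1: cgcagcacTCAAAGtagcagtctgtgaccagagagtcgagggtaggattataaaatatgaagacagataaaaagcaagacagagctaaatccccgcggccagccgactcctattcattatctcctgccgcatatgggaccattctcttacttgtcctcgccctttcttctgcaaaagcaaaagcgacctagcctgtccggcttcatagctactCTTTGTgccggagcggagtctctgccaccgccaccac
Wnt4: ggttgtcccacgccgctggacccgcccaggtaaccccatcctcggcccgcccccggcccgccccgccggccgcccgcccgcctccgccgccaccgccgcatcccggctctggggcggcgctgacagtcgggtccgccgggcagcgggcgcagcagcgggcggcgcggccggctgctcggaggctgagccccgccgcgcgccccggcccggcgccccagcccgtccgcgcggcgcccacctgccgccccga

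In the Fzd1 window the core occurred 2 times, its first base 242 bases before the start on the minus strand and 37 bases before it on the plus strand. The Wnt4 window held no core, and its GC content was 85.2%, against 51.2% for Fzd1 and a median of 52.4% over all windows of these 250 bases.

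Wnt4, a ligand best known from kidney and gonad development, was the member with the smallest adjusted p. The probe ILMN_2512663 read 6.39, 6.58, 6.57 and 6.43 on mock arrays 1 to 4 and 6.98, 6.97, 7.06 and 7.04 on Bcl11b arrays 1 to 4. Every Bcl11b array lay above every mock array, and the probe was detected on 3 mock and 4 Bcl11b arrays. The log2 difference was 0.52 (SE 0.052), or 1.44-fold higher, with an adjusted p of 0.0235 (limma). With undetected arrays set to the dimmest detected signal of the array the fold was 1.39. Leaving out each array in turn kept the call, with adjusted p from 0.0252 to 0.0956. The adjusted p rose to 0.0948 in limma limited to probes detected on at least 4 arrays. It was 0.0975 with division by the array median. The call was lost with limma-trend (adjusted p 0.264) and in limma with the replicate number as a block (adjusted p 0.169). Without normalization between arrays the difference turned to -0.22, where the median difference of detected probes was -0.68. The second Wnt4 probe, ILMN_2889641, read 7.93, 7.88, 7.54 and 7.33 on the mock arrays and 7.84, 7.83, 8.66 and 7.75 on the Bcl11b arrays. Only Bcl11b array 3 stood above all mock arrays here. Its difference was 0.35 (SE 0.25, adjusted p 0.764 in limma), within the spread between arrays, and it was 0.14 without Bcl11b array 3.

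Wnt7a, a ligand with known roles in synapse formation, was lower in Bcl11b cells. The detected probe read 7.50, 6.82, 7.36 and 7.49 on the mock arrays and 6.79, 6.96, 6.49 and 6.86 on the Bcl11b arrays. Mock array 2 lay among the Bcl11b arrays and the other mock arrays above them. The difference was -0.52 (SE 0.18, 1.43-fold lower), with an unadjusted p of 0.0286 and an adjusted p of 0.390 (limma). The call at the looser threshold was lost without mock array 1, 3 or 4 or Bcl11b array 1 or 3, the differences over all 8 omissions running from -0.68 to -0.42. Without mock array 2 the adjusted p was 0.0927. Wnt5a, the ligand most often tied to β-catenin-independent signaling, had a difference of 0.08 (SE 0.19) on its detected probe.

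Porcn, the membrane enzyme that attaches the lipid to Wnt ligands, read 9.42, 8.55, 9.39 and 9.12 on the mock arrays and 8.61, 8.76, 8.58 and 8.14 on the Bcl11b arrays. As for Wnt7a, mock array 2 lay among the Bcl11b arrays. The difference was -0.60 (SE 0.23, 1.51-fold lower), with an unadjusted p of 0.0416 and an adjusted p of 0.453 (limma). This call was lost without mock array 1, 3 or 4 or Bcl11b array 1, 3 or 4, with differences from -0.80 to -0.47, and with division by the array median (unadjusted p 0.0509).

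Fzd1, a Frizzled receptor, had the largest drop of the called members. Its probe read 7.44, 6.70, 7.11 and 7.57 on the mock arrays and 6.46, 6.35, 5.43 and 5.62 on the Bcl11b arrays. The groups did not overlap, and the probe was detected on 4 mock arrays but on only 1 Bcl11b array. The difference was -1.24 (SE 0.31, 2.36-fold lower), with an unadjusted p of 0.00649 and an adjusted p of 0.226 (limma). With undetected arrays set to the dimmest detected signal the fold was 1.75. The looser call held in all 16 alternatives tried, with differences of -1.41 to -1.06 when each array was left out. With the fit limited to probes detected on at least 4 arrays the adjusted p was 0.0948 (limma). Fzd1 met that limit only through its mock arrays, so this value is not further evidence of the drop.

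The other detected Frizzled receptors passed neither threshold. Fzd6 read 10.33, 10.21, 10.44 and 10.35 on the mock arrays and 10.40, 10.33, 10.32 and 10.42 on the Bcl11b arrays, a difference of 0.04 (SE 0.054). Fzd7 read 10.00, 10.75, 9.88 and 10.54 on the mock arrays and 10.18, 10.24, 10.46 and 10.77 on the Bcl11b arrays, a difference of 0.12 (SE 0.24). For both the groups overlapped, and the spread was far wider for Fzd7. Fzd2 and Fzd3 had differences of -0.09 (SE 0.38) and 0.00 (SE 0.095). Of the co-receptors, Lrp5 read 6.60, 6.45, 6.96 and 6.52 on the mock arrays and 6.93, 6.97, 7.07 and 6.83 on the Bcl11b arrays. Mock array 3 overlapped the Bcl11b arrays, and the other mock arrays lay below them. The Lrp5 difference was 0.32 (SE 0.12, unadjusted p 0.0347, adjusted p 0.425 in limma), just under the size of 0.32 before rounding, and it passed the looser threshold without mock array 3 (0.43) or Bcl11b array 4 (0.36) and with division by the array median (0.33). Lrp6 read 7.14, 7.84, 7.67 and 7.60 on the mock arrays and 7.53, 7.77, 7.50 and 8.03 on the Bcl11b arrays, with overlap and a difference of 0.14 (SE 0.19).

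Sfrp1, a secreted protein that binds Wnt ligands through a Frizzled-like domain, was lower in Bcl11b cells. It read 7.50, 8.11, 7.55 and 7.64 on the mock arrays and 7.15, 7.21, 7.28 and 7.37 on the Bcl11b arrays. The groups did not overlap, and mock array 2 stood above the rest of its group. The difference was -0.45 (SE 0.14, 1.37-fold lower), with an unadjusted p of 0.0176 and an adjusted p of 0.336 (limma). Without mock array 2 it was -0.32, before rounding just under the size threshold. Wif1, which also binds the ligands, was detected on 2 arrays of each group and had a difference of 0.16 (SE 0.10).

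**Figure D3:**
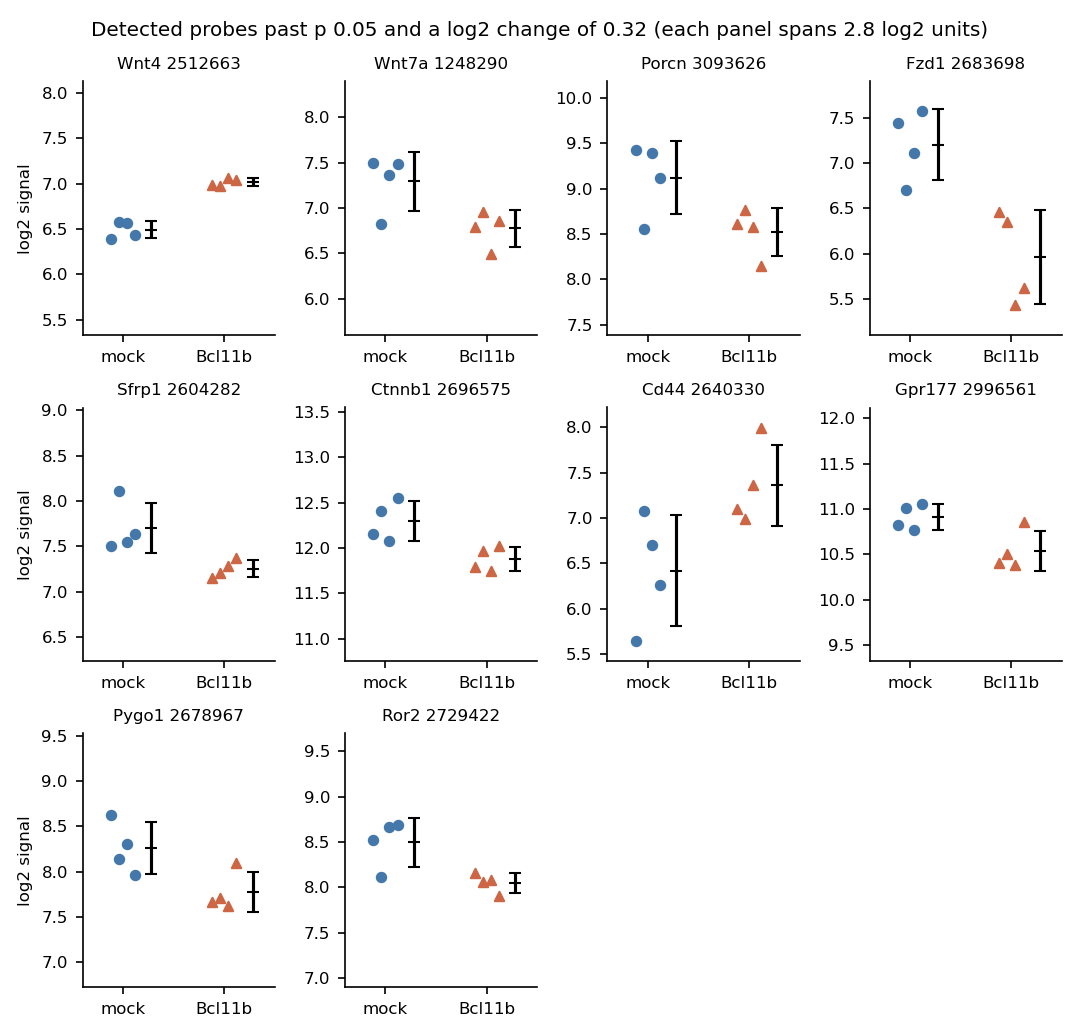
Log2 signal (y axis) of the 6 detected member probes and the 4 probes of other Wnt pathway genes past the looser threshold (unadjusted p under 0.05, at least 0.32 on the log2 scale), with circles for mock and triangles for Bcl11b arrays in replicate order and the mean and SD of each group at the right of its points. Groups do not overlap for Wnt4, Fzd1, Sfrp1 and Ctnnb1, while mock array 2 falls among the Bcl11b arrays for Wnt7a and Porcn.

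The 2 probes for β-catenin gave unlike answers. Ctnnb1 probe ILMN_2696575 read 12.15, 12.41, 12.08 and 12.55 on the mock arrays and 11.79, 11.97, 11.75 and 12.02 on the Bcl11b arrays, without overlap. Its difference was -0.42 (SE 0.12, 1.33-fold lower), with an unadjusted p of 0.0141 and an adjusted p of 0.309 (limma). The other probe, ILMN_2994460, read 12.51, 12.84, 12.60 and 12.77 on the mock arrays and 12.65, 12.56, 12.58 and 12.84 on the Bcl11b arrays. These groups overlapped fully, with a difference of -0.02 (SE 0.096). The drop therefore belongs to 1 of the 2 probes, and which transcripts each probe reads is not given in the sources used here. It was kept when any array was left out (-0.49 to -0.34), and with division by the array median it was -0.24, under the size threshold, while the other probe then had a difference of 0.24 (unadjusted p 0.0137, adjusted p 0.321 in limma). Apc, the scaffold of the destruction complex, had a difference of 0.13 (SE 0.31).

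Dvl1, the Dishevelled protein with a probe near the threshold, also had unlike probes. Probe ILMN_1228762 read 11.37, 11.32, 11.17 and 11.88 on the mock arrays and 10.87, 11.10, 10.91 and 11.23 on the Bcl11b arrays. Bcl11b array 4 overlapped the lowest mock array. The difference was -0.41 (SE 0.17), with an unadjusted p of 0.0501 and an adjusted p of 0.481 (limma), and it passed the looser threshold in 8 of the 16 alternatives. Probe ILMN_1215208 had a difference of 0.60 (SE 0.42) and an adjusted p of 0.758 (limma), of the opposite sign. Dvl2 was detected on 1 array of each group, and no fold change is given.

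None of the probes for TCF/LEF factors, the DNA-binding partners of β-catenin, passed a threshold. Tcf7l2 probe ILMN_2641647 read 9.63, 10.45, 9.61 and 10.16 on the mock arrays and 9.65, 9.79, 10.01 and 10.52 on the Bcl11b arrays, a difference of 0.03 (SE 0.27). Its second probe had a difference of -0.21 (SE 0.22), and the 2 Tcf7 probes had differences of -0.17 (SE 0.25) and -0.30 (SE 0.32). Lef1 read 4.11, 6.81, 5.48 and 6.02 on the mock arrays and 6.46, 6.61, 6.51 and 6.81 on the Bcl11b arrays. It was detected on 1 mock array and on all 4 Bcl11b arrays, and mock array 2 alone reached the Bcl11b level. The Lef1 difference was 0.99 (SE 0.55, unadjusted p 0.120, adjusted p 0.663 in limma), measured against undetected signals on 3 mock arrays. With undetected arrays set to the dimmest detected signal of the array it was 0.12, or 1.09-fold. Without mock array 2 the fitted difference was 1.39, with an unadjusted p of 0.0277.

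**Figure D4:**
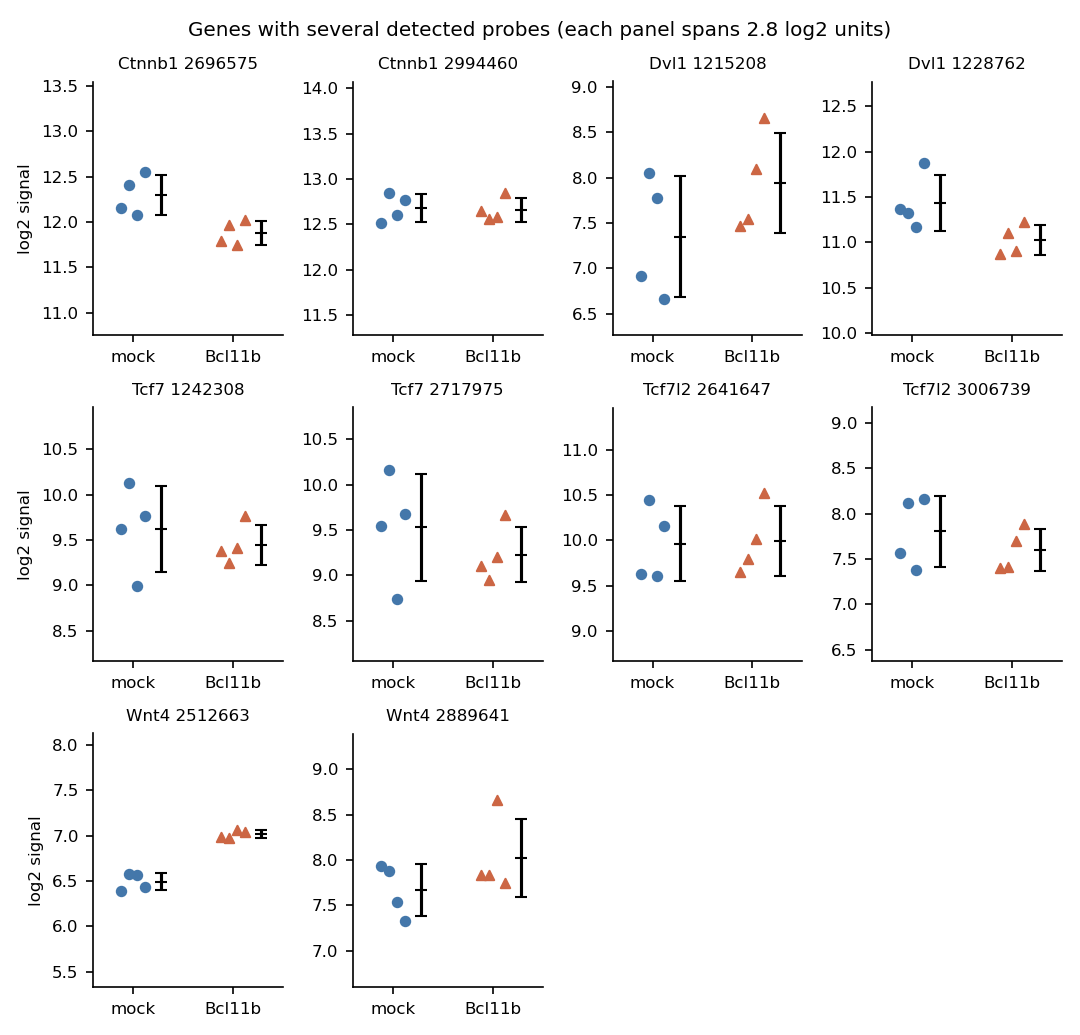
Log2 signal (y axis) for the genes with 2 detected probes, with circles for mock and triangles for Bcl11b arrays in replicate order and the mean and SD of each group at the right of its points. The Ctnnb1 probes differ (-0.42 and -0.02), the Dvl1 probes have opposite signs (0.60 and -0.41), and of the Wnt4 probes the one with separate groups passed (0.52) and the other did not (0.35).

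Several members detected on all 8 arrays were high or low on the same arrays of a group. Mock array 2 was the highest of its group for 9 of these 20 probes (45%, against 25.2% of the 9360 probes detected on all arrays). Mock array 3 was the lowest for 10 (50%, against 22.4%), and Bcl11b array 4 was the highest for 14 (70.0%, against 50.1%). Fzd2, Fzd7, Tcf7 and Tcf7l2 were among those high on mock array 2 and low on mock array 3. The part of these arrays in the results above was not tested beyond leaving each out.

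**Figure D5:**
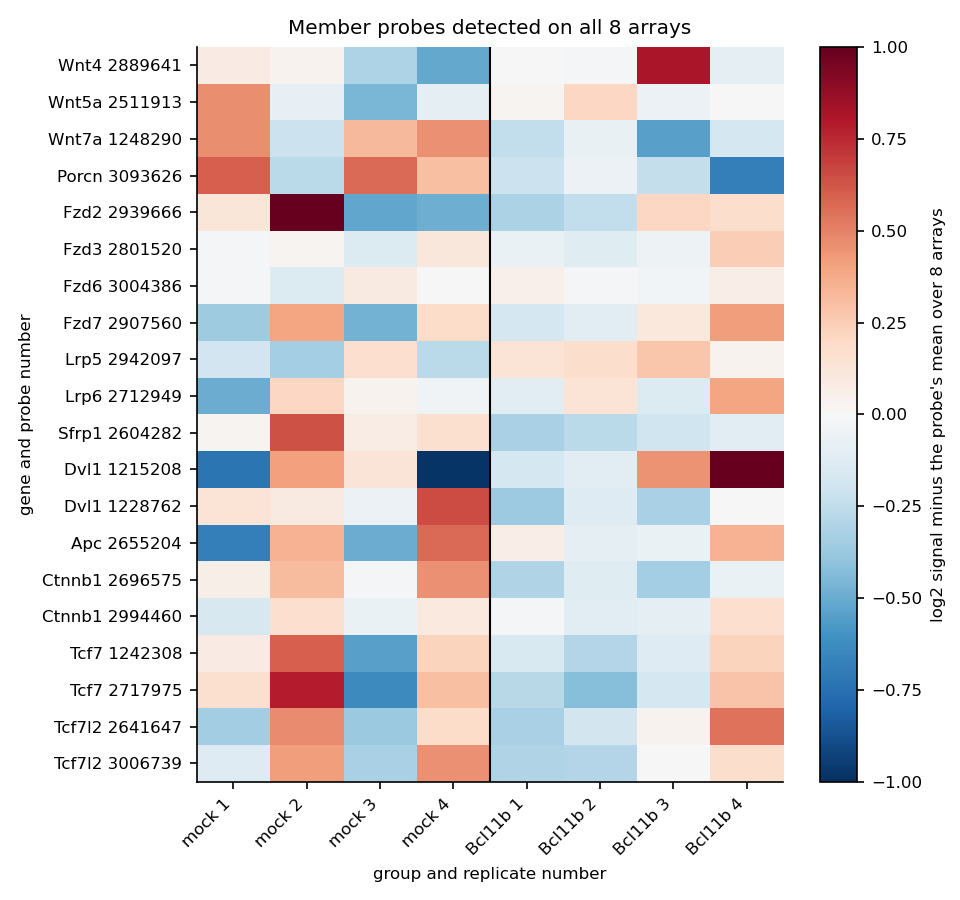
Log2 signal minus the probe's mean over 8 arrays (color, with values beyond 1 or -1 drawn at the end of the scale) for the 20 member probes detected on all 8 arrays (y axis) on each array (x axis, mock left of the line, Bcl11b right). Mock array 2 and Bcl11b array 4 are red and mock array 3 is blue for the Fzd2, Fzd7, Tcf7 and Tcf7l2 probes.

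Of other Wnt pathway genes, 57 were on the array by symbol, with 89 probes, and 30 of these genes were detected, with 46 probes. The looser threshold was passed by 4 detected probes, which is 8.70% of the 46, against 14.8% of all detected probes. The 3 lower ones were Gpr177 (now Wls), the carrier of Wnt ligands, Ror2, a receptor tyrosine kinase for Wnt5a, and Pygo1, a nuclear cofactor of β-catenin. The 1 higher was Cd44, an adhesion receptor and known Wnt target. With division by the array median 2 probes were lower and 0 higher, beside 1118 lower and 1241 higher over all probes. With no normalization 20 were lower and 0 higher, beside 6820 lower and 143 higher over all probes. The median log2 difference of the 46 was -0.07, beside -0.02 over all detected probes.

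Ror2 read 8.52, 8.11, 8.66 and 8.69 on the mock arrays and 8.16, 8.06, 8.08 and 7.90 on the Bcl11b arrays, with mock array 2 again inside the Bcl11b range. Its difference was -0.44 (SE 0.14, unadjusted p 0.0173, adjusted p 0.335 in limma), and the looser call held in all 16 alternatives. Gpr177 read 10.82, 11.01, 10.77 and 11.06 on the mock arrays and 10.40, 10.50, 10.38 and 10.86 on the Bcl11b arrays, and Bcl11b array 4 overlapped the mock arrays. The Gpr177 difference was -0.38 (SE 0.13, unadjusted p 0.0216, adjusted p 0.360 in limma), lost at the looser threshold without mock array 2 or 4 or Bcl11b array 1, 2 or 3 and with division by the array median. Porcn and Gpr177, the enzyme and the carrier of ligand secretion, were both lower in Bcl11b cells at the looser threshold, and neither passed the adjusted one. Both lost the looser call with division by the array median, and a joint change was not tested.

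Pygo1 read 8.63, 8.14, 8.31 and 7.96 on the mock arrays and 7.67, 7.71, 7.62 and 8.10 on the Bcl11b arrays, a difference of -0.48 (SE 0.18, adjusted p 0.401 in limma). Bcl11b array 4 overlapped the mock arrays, and the call was lost without mock array 1 or 3 or Bcl11b array 1, 2 or 3. Cd44 probe ILMN_2640330 read 5.65, 7.08, 6.70 and 6.26 on the mock arrays and 7.10, 6.99, 7.37 and 7.99 on the Bcl11b arrays, a difference of 0.94 (SE 0.37, adjusted p 0.449 in limma). It lost the call in 9 of 16 alternatives, and the other Cd44 probes did not pass. Of the 89 pathway probes 1 passed the adjusted threshold (1.12%, against 0.981% of all probes). This was Tle4, a Groucho-family corepressor that binds TCF factors, named here after its values were seen. It read 9.0, 9.07, 8.99 and 9.13 on the mock arrays and 9.23, 9.32, 9.38 and 9.27 on the Bcl11b arrays. The groups did not overlap, and the difference was 0.25 (SE 0.043, 1.19-fold, adjusted p 0.0960 in limma), under the size of the looser threshold. The adjusted call held in 2 of the 16 alternatives. It was lost whenever any array was left out (adjusted p 0.108 to 0.248), and the difference turned to -0.44 without normalization between arrays.

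A set of RefSeq promoter windows, from 250 bases before to 50 after the annotated start, was matched by gene symbol. It held 41 windows for 32 of the 48 member genes, and the called members Porcn and Sfrp1 were among those without one. The TCF/LEF core, CTTTGA or CTTTGT on either strand, was present in 10 of these 41 windows (24.4%), against 31.2% of all 32851 windows. Of the called member genes 4 had a window, and of their 5 windows 1, that of Fzd1 printed above, held the core. Of the motifs the study lists for Bcl11b 3 were searched, on both strands, and its other motifs were not. ACCACA was in 2 member windows (4.88%, against 16.8% of all), TGCTTG in 6 (14.6%, against 16.4%) and AGTGCT in 8 (19.5%, against 15.4%). Among called members only the Fzd1 window held one of these 3, an AGTGCT match starting 247 bases before the start that shares 1 base with the TCF/LEF core. A match is a match of letters and not a binding site.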

How the data were processed

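RNA of 4 mock and 4 Bcl11b samples was measured on Illumina arrays. The authors deposited 1 intensity per probe and array, the bead signal after background subtraction in GenomeStudio and without scaling between arrays. The deposited table also gives a detection p-value per probe and array. Genes were named by the symbol in the deposited table. Quantile normalization, a floor of 1 and log2 were applied in that order. The groups were compared with limma (version 3.58.1, R 4.3.3; lmFit and eBayes, no covariate) over all probes, with Benjamini-Hochberg adjustment. The thresholds were those of the study. The procedure was run on simulated signals with independent noise for each probe and array. These held no deviations shared between probes and no brightness difference between groups, and their outcome is not given here. The number of arrays limits the precision, and p-values measure the spread between sets of transfected cells of 1 line. Members and lists were chosen with earlier results of these data known. Per-array values are given for detected members past the looser threshold and for the probe of highest mean signal in each role, and other pathway genes are named where they passed. Values per array of Lef1, Lrp5, Fzd6 and Tle4 were added after their values were seen. Promoter windows came from RefSeq (GRCm38.p6). Alternatives were other scalings, an offset of 16, neqc, a detection filter on at least 4 arrays, limma-trend, arrayWeights, the replicate number as a block, and leaving out each array. The ChIP-seq and PCR experiments of the study were not analysed here.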

Additional observations from a re-analysis of the deposited data

Results flagged for a closer look

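The Wnt4 probe ILMN_2889641 read 8.66 on Bcl11b array 3, while the other 3 Bcl11b arrays lay between 7.75 and 7.84. It was the only array that stood apart from its group in this way among the 60 groups of 4 examined. Chance alone sets apart about 1 in 20, and 1 of 60 is below that rate. Without Bcl11b array 3 the difference of this probe was 0.14, against 0.35 with it. The other Wnt4 probe showed no such array.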

How the results depend on the processing

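The number of detected members was 25 whichever array was left out, 32 at a detection p-value under 0.05, 24 on at least 4 arrays and 20 on all 8. The count of detected members past the looser threshold was 6, and lay between 4 and 7 in the alternatives other than no normalization between arrays, including each array left out. With no normalization it was 14, all lower, beside 6820 lower and 143 higher over all probes. There the median difference of all probes was -0.49 and of detected probes -0.68, and Wnt4 and Tle4 changed sign, to -0.22 and -0.44, while relative to the detected median they were 0.46 and 0.24 higher. The count past the adjusted threshold (limma) was 1. It was 2 with the filter on at least 4 arrays (Wnt4 and Fzd1), which Fzd1 met only through its mock arrays. With each array left out it was between 1 and 2, the 2 without mock array 2 being Wnt4 and Wnt7a. It was 0 with no normalization, with limma-trend and with the replicate block, where 14, 6 and 6 members had an unadjusted p under 0.05. Over all probes the adjusted threshold passed 252 as reported, and 57, 45 and 45 in these settings, in that order. It passed 199 of 10622 probes with the filter and 637 of all probes without mock array 2. For other pathway genes the count of 4 became 2 with division by the array median and 20 with no normalization, all lower in both, and ran from 1 (without Bcl11b array 1 or 3) over 2 (without mock array 1 or Bcl11b array 2) to 6 (without mock array 2) with each array left out. Over all probes division by the array median passed 1118 lower and 1241 higher at the looser threshold. The causes were not tested.

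Each probe's group mean was subtracted, and these deviations, not the signals, were correlated between arrays over 9360 probes. Same-numbered arrays of the groups correlated at 0.68, -0.63, 0.18 and 0.70. Mock array 1 correlated best with Bcl11b array 1 and mock array 4 with Bcl11b array 4. Mock array 2 correlated best with Bcl11b array 4 (0.56) and mock array 3 with Bcl11b array 1 (0.46). Whether the numbers mark paired sets of cells was not tested. With the replicate block the adjusted p of Wnt4 was 0.169, over the threshold. At the looser threshold 5 members passed with the block, without Porcn (unadjusted p 0.0916) and Wnt7a (0.0813) and with Dvl1 (0.0177), and 3 other pathway genes, without Pygo1 (0.105) and Cd44 (0.0823) and with Kremen2. Depth on arrays is signal over background, and 45 of the 70 member probes were not detected on any array.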
